A study of Mus musculus with 8 samples.

Results

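The metabotropic glutamate receptors were read across 8 samples of E15.5 mouse hippocampus, 4 from offspring with intrauterine growth restriction (IUGR) and 4 from sham controls. The receptors considered were Grm2, Grm3, Grm4, Grm5, Grm7 and Grm8, taken by gene symbol from the table of read counts, and 6 of 6 were among its 16397 genes. All samples were of the C57Bl/6J strain. In the IUGR group the pregnant dam had carried, from E12.5, a micro-osmotic pump with U-46619, an analog of thromboxane A2 that raises maternal blood pressure. In the sham group the dam had received the same surgery at the same age with a pump that held vehicle. All offspring were thus exposed to maternal surgery, and the drug was given to the dam. Both sexes were used, and the labels do not give the sex of a sample. IUGR samples carry the prefix T1 and sham samples the prefix S1 or S3. The meaning of these prefixes is not given, so any effect of T1 as a batch and of treatment cannot be told apart. Nothing says that samples of a group came from separate litters, so p values measure the spread between these samples.

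Metabotropic glutamate receptors are G protein-coupled receptors that sense glutamate over slower times than the ion channel receptors. Group I receptors, represented here by Grm5, couple to Gq and phospholipase C and sit mostly on the postsynaptic side, where they release calcium from internal stores. Group II (Grm2 and Grm3) and group III (Grm4, Grm7 and Grm8) couple to Gi and Go proteins, lower cyclic AMP and act largely at presynaptic terminals, where they limit transmitter release. Grm3 is also made by astrocytes and their precursors. In the developing brain, Grm5 is present in progenitors and young neurons before most synapses have formed.

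The IUGR libraries held from 12919546 to 16672463 counts and the sham libraries from 11212632 to 15405748. Levels are given as CPM (counts per 1e+06 counts of the library) after TMM scaling. The count behind a receptor value ranged from 12 (Grm2) to 1848 (Grm5). A gene was called at a Benjamini-Hochberg adjusted p of at most 0.05 in edgeR's quasi-likelihood test where its log2 fold change was also 1 or more, up or down. Of 13707 tested genes, 200 (1.46%) were called, 14 of them higher in IUGR (0.102%) and 186 lower. Markers of other tissue differed between the groups. Of the choroid plexus markers, 13 of 13 tested had a lower fitted level in IUGR and 3 were called, with a mean log2 CPM from -0.26 to 3.52 in IUGR and from 5.04 to 5.72 in sham. All 9 cortical hem markers were lower and 4 were called. All 15 general neuron markers were higher, 0 were called by edgeR, 8 had an unadjusted p under 0.05 (against 11.1% of all tested genes) and 2 were called by DESeq2. Xist, which is transcribed from the inactive X chromosome of females, was high in T1-5, T1-3, T1-4 and S1-6 and low in the other 4 samples, that is, high in 3 of 4 IUGR samples and in 1 of 4 sham samples. In such bulk tissue, fewer cells of a type and less RNA per cell cannot be told apart.

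Grm5, the group I receptor that couples to Gq, was the receptor with the largest change and the only one called by edgeR. All 6 receptors had a higher fitted level in IUGR, with log2 fold changes from 0.26 (Grm4) to 1.50 (Grm5) and a median of 0.88. For comparison, 44.5% of all tested genes had a log2 fold change above 0, their median was -0.02, and 3.19% of them lay above the median of the receptors. The groups of samples did not overlap for 2 receptors, Grm5 and Grm8, against 2.08% of all tested genes that were higher in IUGR without overlap. Of the 6 receptors, 4 (Grm3, Grm5, Grm7 and Grm8) had an unadjusted p under 0.05, as did 1520 (11.1%) of all tested genes. DESeq2's Wald test called Grm5 and Grm8, against 0.613% of its tested genes called higher.

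**Figure D1:**
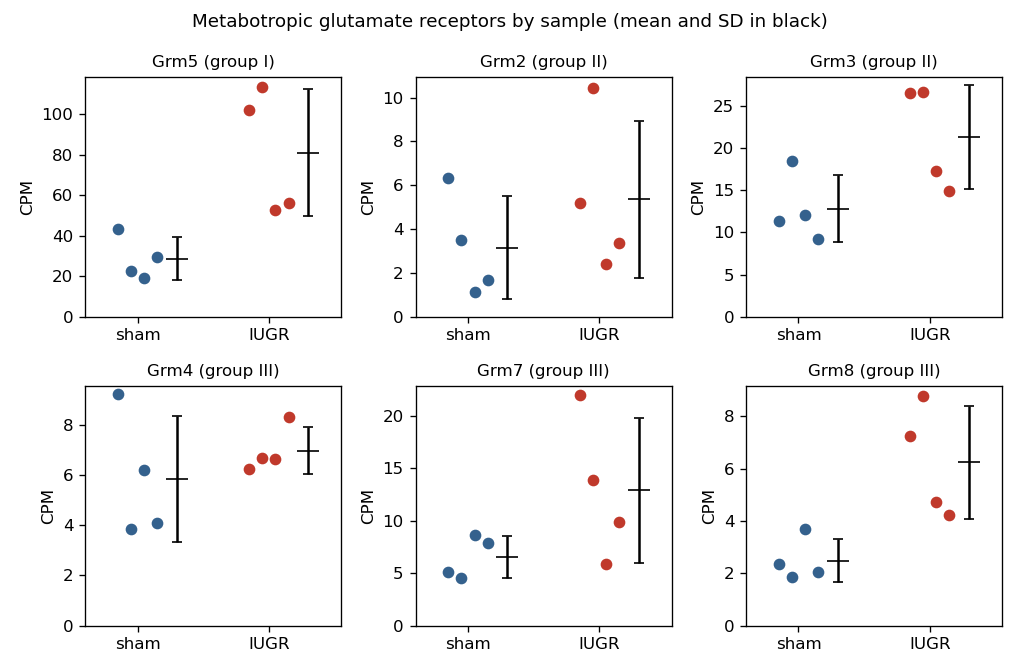
CPM of each receptor in each sample, with 1 panel per receptor and a linear axis from 0. Blue points are the 4 sham samples, red points the 4 IUGR samples, and the black mark with its bar is the group mean and SD. The groups stand apart for Grm5 and Grm8 and overlap for the other 4 receptors.

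The starts of the genes are shown first for 3 receptors that the results below set side by side. Of the 15 receptor pairs, Grm3 and Grm8 had the smallest SD of their log2 difference in IUGR (0.13). Grm7 was the receptor whose pattern was nearest to that of Grm8. The sequences are the bases before the transcription start, read on the gene's strand from RefSeq's promoter windows of GRCm38.p6, which held 4 of the 6 receptors (Grm2, Grm3, Grm7 and Grm8). They span chr5:9725353-9725602 on the minus strand for Grm3, chr6:28135179-28135396 on the minus strand for Grm8 and chr6:110645262-110645511 on the plus strand for Grm7. Capitals mark GC boxes, the letters GGGCGG on either strand.
Grm3: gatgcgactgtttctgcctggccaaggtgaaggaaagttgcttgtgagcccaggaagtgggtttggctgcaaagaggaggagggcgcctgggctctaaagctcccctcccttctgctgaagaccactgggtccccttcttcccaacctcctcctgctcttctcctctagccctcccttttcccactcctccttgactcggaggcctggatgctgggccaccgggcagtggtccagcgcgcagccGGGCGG
Grm8: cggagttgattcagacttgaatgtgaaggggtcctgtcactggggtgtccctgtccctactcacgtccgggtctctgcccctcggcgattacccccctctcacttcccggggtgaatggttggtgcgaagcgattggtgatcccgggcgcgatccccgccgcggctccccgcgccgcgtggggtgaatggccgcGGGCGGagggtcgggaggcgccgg
Grm7: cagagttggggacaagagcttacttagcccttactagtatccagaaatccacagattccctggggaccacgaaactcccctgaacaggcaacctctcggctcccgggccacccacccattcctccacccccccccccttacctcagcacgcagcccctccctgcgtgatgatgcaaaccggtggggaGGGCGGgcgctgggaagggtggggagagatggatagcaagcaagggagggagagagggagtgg

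The full windows of these receptors run from 250 bases before to 50 after the start. The windows from which the Grm3, Grm7 and Grm8 sequences come each held at least 1 GC box, and that of Grm2 held 4, while 35.7% of 32851 mouse windows of this length held at least 1. GC content was 63.7% for Grm3, 61.0% for Grm7, 67.0% for Grm8 and 72.0% for Grm2, against a median of 52.7% over all windows. None of these 4 windows held the cyclic AMP response element TGACGTCA (1.79% of all windows), its first letters TGACG (20.8%), which any full element also contains, the E-box CAGCTG (16.3%) or the TATA box TATAAA (13.6%), each searched on both strands. RefSeq gives 2 starts for Grm7. The window of its other start, 17 bases into the gene, had a GC content of 66.7% and held 1 GC box and none of the other motifs. For Grm8 RefSeq gives 3 starts. The window of the start 757 bases into the gene had a GC content of 54.0% and held TGACG once and no GC box, as the only receptor window with TGACG. The window of the farthest, 8752 bases into the gene, had a GC content of 43.3% and held none of these motifs. These matches describe the letters in a window and were not set against any binding.

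In GENCODE M21 (GRCm38) all 6 are protein-coding genes. Grm5 lies at chr7:87584168-88134907 on the plus strand. In the IUGR group its level was 102.0 CPM (T1-5), 113.6 (T1-3), 52.5 (T1-1) and 56.1 (T1-4). In the sham group it was 43.5 CPM (S1-6), 22.7 (S3-4), 19.0 (S1-4) and 29.3 (S3-1). Every IUGR sample was above every sham sample, and the IUGR samples fell into a higher pair, T1-5 and T1-3, and a lower pair. The means were 81.1 ± 31.3 CPM in IUGR and 28.6 ± 10.8 in sham (SD, n = 4 each). Grm5 rose 2.83-fold, a log2 fold change of 1.50 with a standard error of 0.32 and an adjusted p of 0.0493 in edgeR. DESeq2 gave it an adjusted p of 0.000129.

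The edgeR call of Grm5 lay close to its threshold. It was lost when any 1 of 7 samples was left out, with adjusted p from 0.0518 to 0.155, and was kept without S1-6, the sham sample with the highest Grm5, where the log2 fold change was 1.81 and the adjusted p 0.0344. The direction was the same without each of the 8 samples. With the Xist level as a covariate the log2 fold change was 1.08 and the adjusted p 0.196, and edgeR called 0 genes of all tested in that fit, where 967 had an unadjusted p under 0.05. Among the 4 samples with high Xist, Grm5 was between 56.1 and 113.6 CPM in the 3 IUGR samples and 43.5 in the sham sample. Among the 4 with low Xist it was 52.5 CPM in the IUGR sample and between 19.0 and 29.3 in the 3 sham samples. As the groups did not overlap, a split by Xist could give no other order, and each level of Xist held a single sample of 1 group. For Grm2, Grm3, Grm4 and Grm7, not every IUGR sample was above every sham sample within both levels of Xist. The mean log2 CPM of choroid plexus markers was 3.52 in T1-5 and 3.31 in T1-3, the samples with the most Grm5, and 0.22 in T1-1 and -0.26 in T1-4, the IUGR samples with the least Grm5. All 5 markers of the meninges had a higher fitted level in IUGR, with a median log2 fold change of 1.12. Of these 5 markers, 0 were called by edgeR or DESeq2 and 0 had an unadjusted p under 0.05 (11.1% of all tested genes). Their mean log2 CPM was 7.73 (T1-3), 6.04 (T1-5), 4.60 (T1-1) and 2.56 (T1-4), the order of Grm3 and Grm8 in these samples and, but for the last 2, that of Grm5. In sham it was from 4.43 to 5.65, within the range of IUGR. The part of these markers in the levels of Grm5, Grm3 and Grm8 was not tested.

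Grm3 and Grm2 form group II, which Gi and Go proteins link to a fall of cyclic AMP. Grm3 (chr5:9485541-9725170, minus strand) was at 26.6 CPM (T1-5), 26.7 (T1-3), 17.3 (T1-1) and 14.9 (T1-4). The sham samples were at 11.3 CPM (S1-6), 18.5 (S3-4), 12.1 (S1-4) and 9.26 (S3-1). Only S3-4 reached into the range of the IUGR samples. The means were 21.4 ± 6.16 and 12.8 ± 4.00 CPM (SD, n = 4 each), with a log2 fold change of 0.74, a standard error of 0.27 and an edgeR adjusted p of 0.280. The change did not pass the test.

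Grm2 (chr9:106643095-106656082, minus strand) was at 5.17 CPM (T1-5), 10.4 (T1-3), 2.40 (T1-1) and 3.37 (T1-4). It was at 6.32 CPM (S1-6), 3.49 (S3-4), 1.11 (S1-4) and 1.65 (S3-1). The samples of both groups were spread widely and lay among each other, with a highest value 4.36 times the lowest in IUGR and 5.70 times in sham. The means were 5.35 ± 3.59 and 3.14 ± 2.35 CPM (SD, n = 4 each), and the log2 fold change of 0.77 had a standard error of 0.58 and an edgeR adjusted p of 0.864. It was 0.24 without T1-3, the IUGR sample with the highest level, 1.37 without S1-6, the sham sample with the highest level, and 0.06 with the Xist level as a covariate. The antisense gene Gm28111 shares 470 exon bases with Grm2, and whether counting used the strand is not given in the sources used here.

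Group III holds the presynaptic receptors Grm4, Grm7 and Grm8. Grm8 (chr6:27275119-28135178, minus strand) was at 7.22 CPM (T1-5), 8.79 (T1-3), 4.72 (T1-1) and 4.21 (T1-4). The sham samples were at 2.34 CPM (S1-6), 1.85 (S3-4), 3.70 (S1-4) and 2.04 (S3-1). Every IUGR sample was above every sham sample, and the same pair, T1-5 and T1-3, was highest as for Grm5. The means were 6.24 ± 2.15 and 2.48 ± 0.835 CPM (SD, n = 4 each), a 2.53-fold difference on counts of 26 to 143. The log2 fold change was 1.34 with a standard error of 0.33 and an adjusted p of 0.0891 in edgeR, which did not pass the threshold, and 0.0105 in DESeq2, which did. Of 5 endothelial markers, 4 had a higher fitted level in IUGR, with a median log2 fold change of 0.59. Of these 5 markers, 0 were called by edgeR or DESeq2 and 1 had an unadjusted p under 0.05 (11.1% of all tested genes). Their mean log2 CPM was 5.74 (T1-3), 5.34 (T1-5), 5.30 (T1-1) and 4.95 (T1-4), and 5.33 (S1-4), 5.00 (S1-6), 4.73 (S3-1) and 4.64 (S3-4), which is the order of Grm8 in both groups, although these ranges overlapped. Many other lists had the same order within IUGR. They were the meninges, oligodendrocyte precursor, Cajal-Retzius and erythroid markers and also the cortical hem markers, all of which were lower in IUGR than in sham. The lists of the Gq arm, the Gi and Go arm, the potassium channels and glutamate release and uptake, given below, had it too. The part of any of these lists in the level of Grm8 was not tested. Without each of the 8 samples the edgeR log2 fold change of Grm8 stayed between 1.16 and 1.61, with adjusted p from 0.0732 to 0.255. With the Xist level as a covariate the log2 fold change was 1.19 and the adjusted p 0.455. Mir592, a microRNA gene inside Grm8 on the same strand, shares 96 exon bases with it.

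Grm7 (chr6:110645581-111567230, plus strand), the group III receptor with the lowest affinity for glutamate, was at 22.0 CPM (T1-5), 13.9 (T1-3), 5.85 (T1-1) and 9.86 (T1-4). It was at 5.11 CPM (S1-6), 4.56 (S3-4), 8.60 (S1-4) and 7.84 (S3-1). T1-1 lay within the range of the sham samples and the other 3 IUGR samples above it. The means were 12.9 ± 6.89 and 6.53 ± 1.99 CPM (SD, n = 4 each), with a log2 fold change of 0.98, a standard error of 0.38 and an edgeR adjusted p of 0.335. Without T1-5 the log2 fold change was 0.60. The antisense gene Gm20387 shares 130 exon bases with Grm7.

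Grm4 (chr17:27422387-27521403, minus strand) had the smallest difference of the 6. It was at 6.24 CPM (T1-5), 6.70 (T1-3), 6.67 (T1-1) and 8.34 (T1-4), and at 9.26 CPM (S1-6), 3.85 (S3-4), 6.19 (S1-4) and 4.08 (S3-1). The highest value of all 8 samples was in sham. The means were 6.99 ± 0.928 and 5.85 ± 2.51 CPM (SD, n = 4 each), with a log2 fold change of 0.26, a standard error of 0.30 and an edgeR adjusted p above 0.99. Its direction turned to -0.15 when IUGR was compared with the S1 sham samples alone, and it was 0.84 against the S3 samples alone (edgeR adjusted p = 0.374). It was 0.61 without S1-6, 0.10 without S3-4, 0.12 without S3-1, 0.16 without T1-4 and 0.03 with the Xist level as a covariate.

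**Figure D2:**
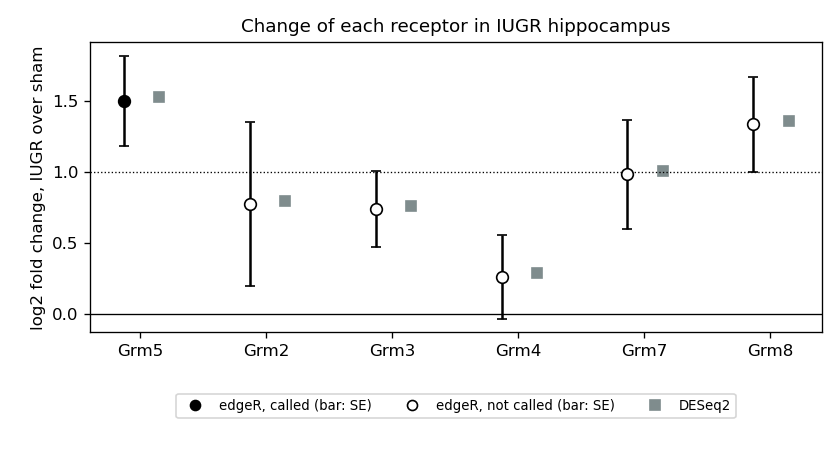
Log2 fold change of each receptor, IUGR over sham, from edgeR with its standard error (circles, filled where called) and from DESeq2 (grey squares). The dotted line is the log2 fold change of 1 used in the call. All 6 estimates are above 0, and Grm5 at 1.50 and Grm8 at 1.34 are the highest.

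Levels can be compared between receptors only per length, here as CPM per kilobase of merged exons in GENCODE M21. In sham, Grm3 was the highest at 4.20 ± 1.31 CPM per kb, followed by Grm5 at 2.79 ± 1.05 and Grm7 at 1.11 ± 0.338. Grm4 (0.978 ± 0.420), Grm2 (0.642 ± 0.480) and Grm8 (0.251 ± 0.0843) were below them (SD, n = 4 each). In IUGR, Grm5 was the highest at 7.91 ± 3.05 CPM per kb and Grm3 followed at 7.01 ± 2.02. Grm7 was at 2.19 ± 1.17, Grm4 at 1.17 ± 0.155, Grm2 at 1.09 ± 0.734 and Grm8 at 0.630 ± 0.217 (SD, n = 4 each).

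The first places were thus exchanged between the groups. Grm3 was above Grm5 in 3 of 4 sham samples, and Grm5 was above Grm3 in 3 of 4 IUGR samples, but the ranges of these neighbours overlapped in both groups. The only neighbours in the order whose ranges did not overlap were the second receptor and Grm7, in either group. Grm8 was the lowest on average in both groups despite its larger fold difference.

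**Figure D3:**
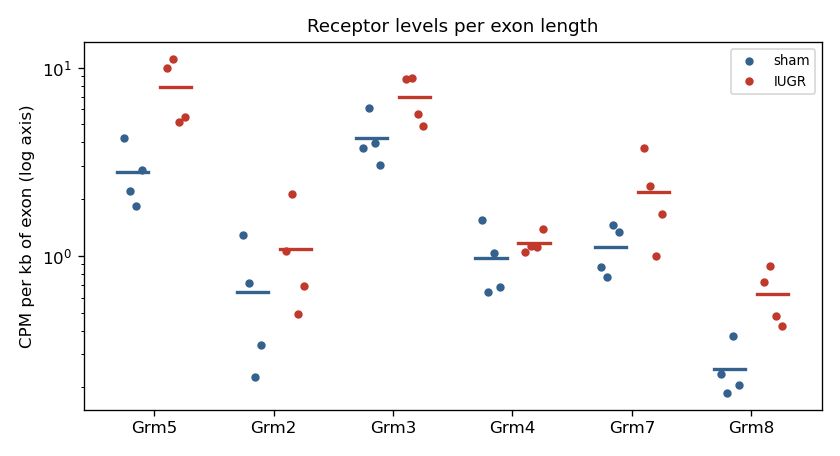
Level of each receptor in CPM per kb of exon on a log axis, with sham in blue, IUGR in red, 1 point per sample and a line at the group mean. Grm3 and Grm5 are above the other 4 receptors on average in both groups, and Grm8 is the lowest.

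Whether receptors differed in their response was examined over the 15 pairs. For each pair the difference in log2 CPM within a sample was compared between groups by an exact two-sided permutation test, whose smallest possible p is 0.0286 with 4 against 4. None of the 15 had an exact p of at most 0.05, and the smallest adjusted p was 0.551. With 15 pairs, a single pair at the smallest possible p could not have passed the adjusted threshold. The largest difference was that of Grm5 and Grm4, at 3.43 ± 0.69 log2 units in IUGR and 2.28 ± 0.52 in sham, a change of 1.15 (exact p = 0.0571, n = 4 each). Within group III, Grm8 against Grm4 changed by 0.93 (exact p = 0.0857), Grm8 against Grm7 by 0.41 (exact p = 0.257) and Grm7 against Grm4 by 0.53 (exact p = 0.40). Within group II, Grm2 against Grm3 changed by 0.08 (exact p = 0.886). Grm5 and Grm8, of groups I and III, differed in their change by 0.22 (exact p = 0.80). Without each sample in turn the change ranged from -0.28 (without S1-4) to 0.54 (without S1-6) for Grm2 against Grm3, from -0.15 (without S1-4) to 0.46 (without S1-6) for Grm5 against Grm8, from 0.17 to 0.83 for Grm7 against Grm4 and from 0.20 to 0.62 for Grm8 against Grm7. It stayed between 0.67 and 1.18 for Grm8 against Grm4 and between 0.92 and 1.39 for Grm5 against Grm4. The groups of receptors as such were not compared.

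The receptors varied together to different degrees within the groups. The log2 difference between Grm8 and Grm3 had an SD of 0.13 in IUGR and 0.66 in sham. That between Grm5 and Grm8 had an SD of 0.15 in IUGR and 0.79 in sham, and that between Grm5 and Grm3 0.21 in IUGR and 0.78 in sham. These pairs of Grm3, Grm5 and Grm8 were picked as those with the smallest SD in IUGR of the 15 pairs. The largest SD in IUGR was 0.96, for Grm2 and Grm4. All IUGR samples share the prefix T1 while sham holds S1 and S3, so prefix and treatment cannot be told apart in these spreads. Pairs of other genes were not examined. The difference between Grm7 and Grm4 had an SD of 0.88 in IUGR and 0.75 in sham. These spreads were not compared by a test.

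Because the general neuron markers were higher in IUGR, each receptor was also read relative to them, as its log2 CPM minus the mean log2 CPM of 15 neuron genes. That mean was from 7.24 to 7.73 in IUGR and from 6.78 to 7.20 in sham, without overlap, and the median log2 fold change of its genes was 0.58. Syt1, the calcium sensor of synaptic vesicles, was between 83.4 and 161.8 CPM in IUGR and between 38.2 and 78.2 in sham (log2 fold change 1.08, SE 0.25, edgeR adjusted p = 0.0629, n = 4 each). Nefl, a neurofilament subunit, had a log2 fold change of 1.24 (SE 0.41, edgeR adjusted p = 0.218).

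Relative to the neuron list, Grm5 was 0.95 log2 units higher in IUGR (-1.23 ± 0.51 against -2.18 ± 0.33, exact p = 0.0571, n = 4 each), compared with 1.48 for its plain log2 CPM (exact p = 0.0286, the smallest possible). Grm8 was 0.73 higher (exact p = 0.0857), compared with 1.26 (exact p = 0.0286). For Grm7 the value was 0.32 (exact p = 0.514), for Grm2 0.28 (exact p = 0.60), for Grm3 0.20 (exact p = 0.514) and for Grm4 -0.20 (exact p = 0.457). The groups overlapped for all 6 receptors on this scale. Over these 6 exact tests the Benjamini-Hochberg adjusted p was 0.257 for Grm5 and Grm8 and 0.60 for each other receptor. A single receptor at the smallest possible p could not have passed the adjusted threshold. Without each sample in turn the value of Grm5 stayed between 0.77 and 1.14, while that of Grm2 ranged from -0.04 (without S1-4) to 0.61 and that of Grm7 from -0.02 (without T1-5) to 0.56. The value of Grm3 ranged from 0.04 (without T1-5) to 0.43 (without S3-4), that of Grm4 from -0.35 (without S3-1) to -0.04 (without S1-6) and that of Grm8 from 0.60 to 0.98. With the glutamatergic list in place of the general one, the values were 1.31 for Grm5, 1.09 for Grm8, 0.68 for Grm7, 0.63 for Grm2, 0.55 for Grm3 and 0.15 for Grm4, whose direction turned, and 0 of the 6 had an exact p of at most 0.05. Of the neuron subtypes, the 9 glutamatergic markers were at a median of -0.02 (log2 fold change), with 4 higher and 5 lower, and 10 of 11 GABAergic markers were higher with a median of 0.22. In both lists 0 genes were called by edgeR or DESeq2, and 0 had an unadjusted p under 0.05. For precursors of oligodendrocytes, 5 of 5 markers were higher with a median of 0.39, 0 called by either tool and 2 with an unadjusted p under 0.05. Other lists of the neuronal lineage differed in direction. Of 7 markers of Cajal-Retzius cells, 5 were higher, with a median of 0.37, 0 called by edgeR or DESeq2 and 1 at an unadjusted p under 0.05. The 3 tested genes of the granule cell lineage had a median of -0.56, with 3 of 3 lower and 2 at an unadjusted p under 0.05 (11.1% of all tested genes), and the 5 of intermediate progenitors a median of -0.26, with 5 of 5 lower and 1 at an unadjusted p under 0.05. Neurod1 is in both lists, and 0 genes of either were called by edgeR or DESeq2.

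**Figure D4:**
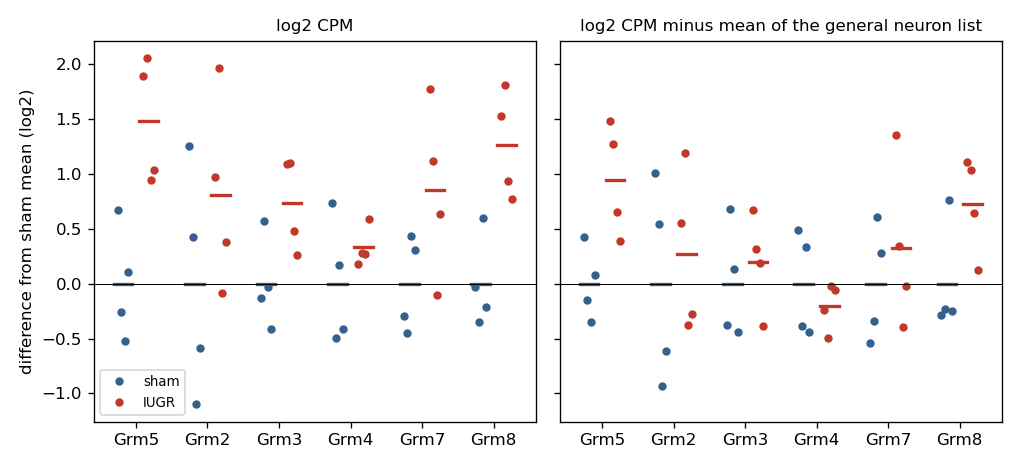
Difference of each sample from the sham mean, in log2 units, for the log2 CPM of each receptor (left) and for its log2 CPM minus the mean of the general neuron list (right). Sham is blue, IUGR is red, and lines are group means. The groups stand apart for Grm5 and Grm8 on the left, and overlap for all 6 receptors on the right.

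The genes of the receptors' pathways were counted by role. Of the 17 tested genes of the Gq and phospholipase C arm that serves group I, 15 were higher and 2 lower in IUGR, with a median log2 fold change of 0.30. None was called by edgeR or DESeq2, and 2 had an unadjusted p under 0.05, a share near the 11.1% of all tested genes. Those 2 were Gnaq, the alpha subunit of Gq, and Itpr1, the neuronal inositol trisphosphate receptor of the calcium stores, and they differed in direction. Gnaq was between 202.6 and 228.9 CPM in IUGR and between 157.9 and 185.9 in sham, without overlap (log2 fold change 0.29, SE 0.11, edgeR adjusted p = 0.294, n = 4 each). Itpr1 was at 71.5 ± 22.8 CPM in IUGR and 138.5 ± 25.7 in sham, also without overlap (log2 fold change -0.95, SE 0.25, edgeR adjusted p = 0.103, n = 4 each). It was the pathway gene farthest below sham in this arm, while Itpr3, of the same family, had a log2 fold change of 1.10 (SE 0.50, edgeR adjusted p = 0.451). Plcb1, a phospholipase C of forebrain neurons, was at 0.30 and Plcb4 at 0.34.

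The 11 Homer, Shank and related scaffold genes that tie group I receptors to the postsynaptic density had a median of 0.03, with 6 higher, 5 lower and 0 called by edgeR or DESeq2. The log2 fold change was -0.05 for Homer1 (SE 0.18) and -0.05 for Homer3 (SE 0.14). It was 0.28 for Homer2 (SE 0.25), which like them binds the tail of Grm5, and 0.76 for Agap2 (SE 0.28, edgeR adjusted p = 0.299), which was the only one with an unadjusted p under 0.05. Of all tested genes, 1.46% were called by edgeR and 11.1% had an unadjusted p under 0.05. Grm5 was not compared with the scaffold genes by a test.

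Of the 13 genes of the Gi, Go and adenylyl cyclase arm that serves groups II and III, 11 were higher and 2 lower, with a median of 0.27. None was called by edgeR or DESeq2, and 3 had an unadjusted p under 0.05 (11.1% of all tested genes did). Adcy1, a calcium-stimulated cyclase of neurons, was at 110.0 ± 48.5 CPM in IUGR and 53.8 ± 18.9 in sham (log2 fold change 1.03, SE 0.35, edgeR adjusted p = 0.239, n = 4 each). Adcy2 had a log2 fold change of 0.71 (SE 0.30, edgeR adjusted p = 0.390). Gnaz, which encodes the alpha subunit Gz of the Gi family, was at 50.3 ± 8.38 CPM in IUGR and 31.5 ± 5.54 in sham without overlap (log2 fold change 0.68, SE 0.17, edgeR adjusted p = 0.0891, n = 4 each). Gnaq, Gnaz and the subunits, scaffolds and phospholipases given here without an adjusted p, other than Homer2, were named after their values were seen. The log2 fold changes of the other alpha subunits were 0.27 for Gnai1 (SE 0.14), 0.02 for Gnai2 (SE 0.14), -0.16 for Gnai3 (SE 0.17) and 0.15 for Gnao1 (SE 0.31).

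Among the 4 potassium channels gated by G protein, 3 were higher and 1 lower with a median of 0.31. Kcnj5 was at -0.28 (SE 0.46), Kcnj3 at 0.09 (SE 0.33) and, at mean counts under 50, Kcnj9 at 0.53 (SE 0.32) and Kcnj6 at 1.01 (SE 0.52), the last 2 named after their values were seen. Of 22 receptor partners and regulators, 16 were higher and 6 lower with a median of 0.11. In this list Rgs7, which speeds the shutdown of Gi and Go signals, had a log2 fold change of 1.00 (SE 0.33, edgeR adjusted p = 0.219). Elfn1, a postsynaptic adhesion protein that binds group III receptors across the synapse, had one of 0.86 (SE 0.38, edgeR adjusted p = 0.426). Rgs8, of the family of Rgs7 and named after its values were seen, had one of 0.78 (SE 0.23, edgeR adjusted p = 0.161). The 6 endocannabinoid genes, which act downstream of group I receptors, had a median of 0.02, with Dagla at 0.20 (SE 0.40) and Faah at -0.20 (SE 0.31). Of 12 genes of glutamate release and uptake, 9 were higher with a median of 0.12, and the glial transporter Slc1a2 had a log2 fold change of 0.70 (SE 0.29, edgeR adjusted p = 0.384) and the neuronal transporter Slc1a1 one of 0.53 (SE 0.35, edgeR adjusted p = 0.766). None of the genes of these 4 lists was called by edgeR or DESeq2, and the number with an unadjusted p under 0.05 was 0, 3, 0 and 3 in the order given, against 11.1% of all tested genes. Among the receptor partners these were Rgs7, Rgs8 and Elfn1. In the last list they were Slc1a2 and, at mean counts under 50, the vesicular transporter gene Slc17a8 at -1.84 (SE 0.58, edgeR adjusted p = 0.190) and the uptake transporter gene Slc1a6 at 1.15 (SE 0.44, edgeR adjusted p = 0.316), both named after their values were seen.

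**Figure D5:**
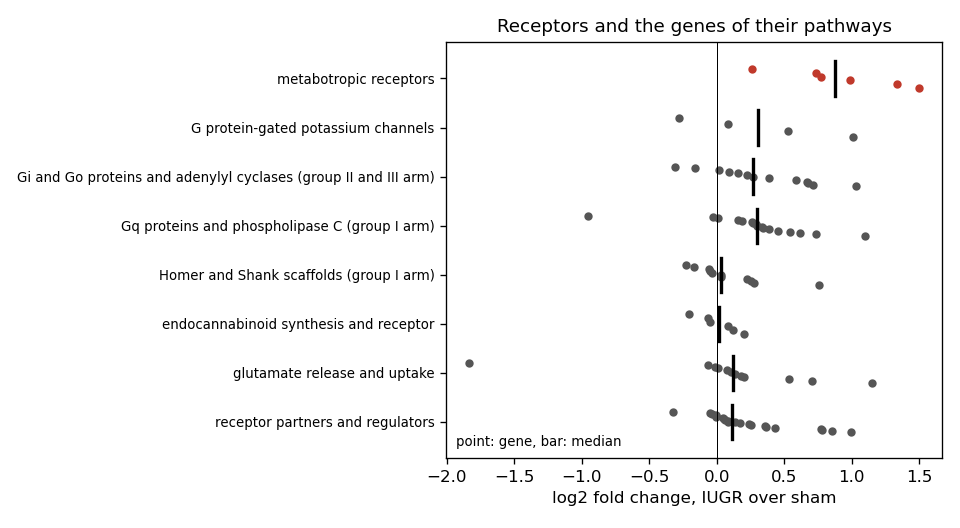
Log2 fold change, IUGR over sham, of the 6 receptors (red) and of each tested gene of 7 pathway lists (grey), with 1 point per gene and a bar at the median. The receptors have a median of 0.88, and the medians of the lists lie between 0.02 and 0.31.

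For each receptor, the genes whose pattern over the 8 samples was most alike were found among 11905 genes whose mean count reached 50. Likeness was the root-mean-square difference of log2 CPM, each gene centred on its own mean, and was read as a description. Nearest to Grm5 were 6330403A02Rik at 0.201, the growth factor gene Fgf9 at 0.204 and Hpcal4, a neuronal calcium sensor, at 0.222, where the spread of Grm5 itself was 0.880. Fgf9 had a mean of 6.76 CPM in IUGR and 1.92 in sham. Nearest to Grm8 were the contactin gene Cntn6 at 0.254, Tmem255a at 0.259 and the receptor phosphatase gene Ptprb at 0.286. Nearest to Grm7 were Lingo2 at 0.149, the GABA receptor subunit gene Gabrb2 at 0.221 and Nap1l3 at 0.260.

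Grm3 was nearest to the vesicle release gene Cadps2 at 0.238, to Slco3a1 at 0.257 and to Trim16 at 0.258. Grm4 was nearest to Phf19 at 0.0992, Fam57b at 0.142 and the potassium channel gene Kcnh4 at 0.143, with a spread of its own of only 0.404. Grm2 had no gene as near, with the potassium channel partner Kcnip2 at 0.389, the transcription factor gene Tcf7 at 0.393 and Sema3d at 0.399. Receptors were not among each other's nearest genes. Grm8 ranked 123 in likeness to Grm5 at 0.502, Grm7 ranked 132 in likeness to Grm8 at 0.459, Grm5 ranked 132 in likeness to Grm2 at 0.621, Grm8 ranked 158 in likeness to Grm7 at 0.459 and 1394 in likeness to Grm3 at 0.487. The receptor nearest to Grm4 was Grm3, at a rank of 10383 and 0.638. The farthest rank was that of Grm2 in likeness to Grm4, at 11321.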

How the data were processed

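Total RNA from 4 IUGR and 4 sham E15.5 hippocampi was depleted of ribosomal RNA, made into stranded libraries and sequenced as single reads. The submitters' processing notes name Novoalign 2.8 and the mm10 build. The authors deposited raw counts per gene, not normalized, with 1 column per sample. The counting program, annotation and use of strand are not given in the sources used here. Another receptor of the family is not reported here.

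Samples were grouped by the labels. Ensembl identifiers were looked up in GENCODE M21 (16124 of 16397 found), and those that code for protein and average from 10 to under 50000 counts were kept (13707). The count range follows the study's methods, which name no test. Counts were compared with edgeR 4.0.16 (TMM, quasi-likelihood test) in R 4.3.3, and p values were adjusted by Benjamini-Hochberg across every tested gene. DESeq2 1.42.0 and limma 3.58.1 (voom) were alternatives. Scripts were tested on simulated data. Log2 CPM used a prior count of 2. Samples of a group differed by far more than counting noise (chi-square per degree of freedom of at least 27.7), so none was counted as a repeat. Fold changes are edgeR's unless another tool is named. Exact permutation tests, two-sided, were used for single values. Named genes were all receptors, the 2 genes with the largest absolute change (mean count 50 or more) in each pathway list, and the 3 nearest in pattern. Syt1, Nefl and Neurod1 were likewise among the 2 such genes of a marker list, whose other genes were mostly not named. Xist, genes that overlap a receptor and the genes stated as named after their values were seen were also given. The alternatives were other scalings, filters, gene sets and tests, sham subsets, the Xist level as a covariate and leaving out each sample. The receptors and gene lists were chosen with earlier results of these data known.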

Additional observations from a re-analysis of the deposited data

How the results depend on the processing

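The edgeR call of Grm5 was lost with upper-quartile scaling (log2 fold change 1.54, adjusted p = 0.0511), over all genes of the table (1.51, 0.0528), against the S1 sham samples alone (1.38, 0.414) or the S3 ones alone (1.66, 0.137) and with the Xist level as a covariate (1.08, 0.196). No receptor was then called (0 in each of these 5 fits). The call held in the 5 other fits. The cause was not tested, except that the sham subsets hold fewer samples. Leaving out each sample in turn gave log2 fold changes of Grm5 between 1.32 and 1.81 and between 0 and 1 receptors called. DESeq2 called 2 receptors, with Grm8 at 1.36. Grm4 changed direction against S1 alone (-0.15), and relative to glutamatergic in place of general neuron markers (from -0.20 to 0.15). Relative to general neuron markers, Grm2 turned to -0.03 without T1-3 and -0.04 without S1-4, and Grm7 to -0.02 without T1-5. In log2 fold change, the other 5 receptors were higher in IUGR in all 18 refits.

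The number of all genes called was 425 with DESeq2, 328 with voom, 0 against S1 alone (1053 with an unadjusted p under 0.05), 2 against S3 alone and 0 with the Xist covariate (967 with an unadjusted p under 0.05), and between 41 and 298 without each sample. The median of the glutamatergic list turned from -0.015 to 0.014 with DESeq2 size factors, and DESeq2 called 5 choroid plexus markers in place of 3. With a prior count of 0.5 or DESeq2 size factors, 0 of 15 receptor pairs had an exact p of at most 0.05, as in the main comparison (without a sample the pairs were not tested). Grm8 and Grm2 rest on counts as low as 26 and 12. The standard error was 0.58 for Grm2, 0.33 for Grm8 and 0.32 for Grm5, at mean counts of 58.1, 58.8 and 744.5, and the part of depth in it was not tested. No paired analysis was possible because the numbers in the labels do not link IUGR and sham samples.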
